A study of Mus musculus with 16 samples.

Results

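Collagen chain genes were followed in the livers of mice that had received a foreign gut microbiota or vehicle. They were taken by name alone, as every gene whose symbol on the array is Col, a number, a and a number (such as Col1a1), which gave 44 of the 37074 gene names on the array and 91 of its 56605 probes. All animals were conventional C57BL/6 males, 6 weeks old at the start and 10 weeks old at sampling, which kept their own microbiota, received no antibiotics and were fed a normal chow for 4 weeks. The Conv + PBS group (n = 6) received the vehicle, reduced PBS, although a label also calls these mice not transplanted. The Conv + LM group (n = 5) was gavaged with caecal microbiota of lean, chow-fed donors and the Conv + OM(HFD) group (n = 5) with that of donors made obese by a high-fat diet. Each inoculum was a pool of several donors, so the recipients of a group share the donors behind them. The paper houses mice 5 or 6 to a cage and does not give the cage of each mouse. An effect of cage therefore cannot be told apart from that of the inoculum. Total liver RNA of each mouse was read on its own array.

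Collagens are the main structural proteins of the extracellular matrix. Each collagen molecule is a rope of 3 chains, and each chain carries a stretch of triplets that begin with glycine, the only residue small enough for the centre of the rope. In the liver, type I and type III collagen form the fibres of portal tracts and scars, type IV collagen lies along the sinusoids and beneath bile duct and vessel cells, type VI collagen makes fine beaded filaments, and type XVIII collagen carries the fragment endostatin at its end. Stellate cells, portal fibroblasts, mesothelium and endothelium are the usual sources of most chains, while type XVIII is also made by hepatocytes.

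The repeat that defines the family can be read in the probes themselves. Of the 91 collagen probes, 4 held a glycine codon (GGN) at every ninth base from end to end with no stop codon in that frame, and they are shown because they lie inside the part of the chain that gives it its name. Capitals mark the glycine codons in these probes of 60 bases.
Col5a3: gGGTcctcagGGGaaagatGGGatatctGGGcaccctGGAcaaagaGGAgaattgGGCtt
Col6a3: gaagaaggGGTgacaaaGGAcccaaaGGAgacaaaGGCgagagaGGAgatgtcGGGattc
Col11a2: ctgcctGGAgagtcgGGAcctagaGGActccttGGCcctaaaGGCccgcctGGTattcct
Col15a1: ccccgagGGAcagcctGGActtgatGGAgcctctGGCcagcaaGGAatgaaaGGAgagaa
The Col5a3 probe (mm9, chr9:20590066-20590795, minus strand) and the Col6a3 probe (chr1:92689602-92690594, minus strand) cover 730 and 993 bases of genome, more than their own length, so they join separate exons. The Col11a2 probe (chr17:34189287-34189453, plus strand) covers 167 bases and does so too, whereas the Col15a1 probe (chr4:47283786-47283845, plus strand) lies in 1 stretch. None of the 4 stands for its gene below, where the probe with the highest mean signal was used.

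Col1a1 is read by 4 probes, of which 3 passed the filter. The probe that stands for it (mm9, chr11:94813075-94813134, plus strand) and a neighbour (chr11:94813115-94813174) share the 20 bases shown here in capitals, so they are no independent readings of the transcript.
Col1a1, shared by both probes: TGACCAACTGAACGTGACCA
The third probe lies further along (chr11:94814188-94814247) and shares no base with them. Across the 16 mice, deviations from the group means correlated between these 3 probes with r from 0.93 to 0.997, so the large spread of Col1a1 described below was also seen by a probe elsewhere on the gene.

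The upstream regions of the chains that varied together are given as far as RefSeq holds them (GRCm38.p6). The table had an entry for 35 of the 44 genes. Col1a2 (chr6:4505368-4505617, plus strand) and Col3a1 (chr1:45311288-45311537, plus strand) are shown because their signals followed that of Col1a1 most closely. Both stretches are the 250 bases before the annotated start, and capitals mark the letters CCAAT of a CCAAT box, GGGCGG of a GC box, or TATAAA of a TATA box, searched on either strand.
Col1a2: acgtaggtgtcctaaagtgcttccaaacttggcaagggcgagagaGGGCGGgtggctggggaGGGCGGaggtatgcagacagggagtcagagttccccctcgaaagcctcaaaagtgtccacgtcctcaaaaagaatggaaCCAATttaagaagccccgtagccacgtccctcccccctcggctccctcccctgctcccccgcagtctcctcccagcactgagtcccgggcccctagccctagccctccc
Col3a1: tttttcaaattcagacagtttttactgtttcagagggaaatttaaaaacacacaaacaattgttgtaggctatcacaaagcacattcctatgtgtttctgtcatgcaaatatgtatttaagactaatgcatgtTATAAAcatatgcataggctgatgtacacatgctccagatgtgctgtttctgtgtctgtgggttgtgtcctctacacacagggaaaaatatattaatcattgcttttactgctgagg
The Col1a2 stretch held GGGCGG 205 and 188 bases and CCAAT 109 bases before the start. The Col3a1 stretch held TATAAA 117 bases before the start and neither of the others. Among all 32851 windows of the same length, CCAAT occurred in 33.8%, GGGCGG in 32.7% and TATAAA in 12.4%. Of the 10 collagen genes whose r with Col1a1 exceeded 0.5 (below), 4 held CCAAT, 6 GGGCGG and 1 TATAAA, against 4, 8 and 2 of the 10 other measured collagen genes with an entry. The windows of 300 bases around the starts of Col4a1 (chr8:11312777-11313076, minus strand) and Col4a2 (chr8:11312555-11312854, plus strand) overlap by 78 bases, and these genes are transcribed away from each other.

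The 75th percentile of the processed signal, to which each array was scaled, ranged from 223 to 324 (243 to 324 on the first slide and 223 to 308 on the second), and 49.7% to 58.3% of probes lay well above background by Agilent's own call. No spot was saturated on any array. Values below are log2 values relative to that percentile, where 0 is the percentile itself. The arrays lay on 2 slides, the first with 3 vehicle, 2 Conv + LM and 3 Conv + OM(HFD) mice and the second with 3, 3 and 2. The hepatocyte markers (6 of 6 measured, among them Alb and Ttr) had a mean level between 8.38 and 8.86 in each mouse. Of 7 pancreas markers, 4 were measured (Cela1, Cela2a, Amy2a5 and Ctrb1), with a mean level from 1.22 to 1.76, and Prss1, Cpa1 and Pnlip did not reach the limit of 5 arrays well above background. Of 8 fat and muscle markers, 5 were measured, with a mean level from -4.58 to -1.77, and Adipoq, Ckm and Acta1 were not.

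Of the 44 collagen genes, 25 (56.8%) had a probe well above background on at least 5 of 16 arrays, close to the 55.0% of all gene names. Of these, 19 were above it on all 16 arrays. The other 6 were Col6a2 (14 arrays), Col11a2 (12), Col22a1 (9), Col26a1 (7), Col2a1 (6) and Col6a5 (5). A further 18 genes were above background on 1 to 4 arrays and Col6a6 on none. Among the fibrillar chains 8 of 11 passed, including both chains of type I and the single chain of type III, whereas Col5a2, the usual partner of Col5a1, was above background on only 1 array. In type IV, the chains of the common network (Col4a1 and Col4a2) and Col4a5 passed, and Col4a3, Col4a4 and Col4a6 did not. In type VI, Col6a1, Col6a2, Col6a3 and Col6a5 passed of 6 chains. Of the fibril-associated chains, which decorate the surface of fibres, 5 of 9 passed (Col9a2, Col14a1, Col16a1, Col20a1 and Col22a1). Col8a1 (of 3 short chains), Col18a1 (of 2 multiplexins) and Col13a1 (of 4 transmembrane chains) were alone in their classes, and Col7a1, the anchoring fibril chain, and Col26a1 passed of 3 others.

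**Figure D1:**
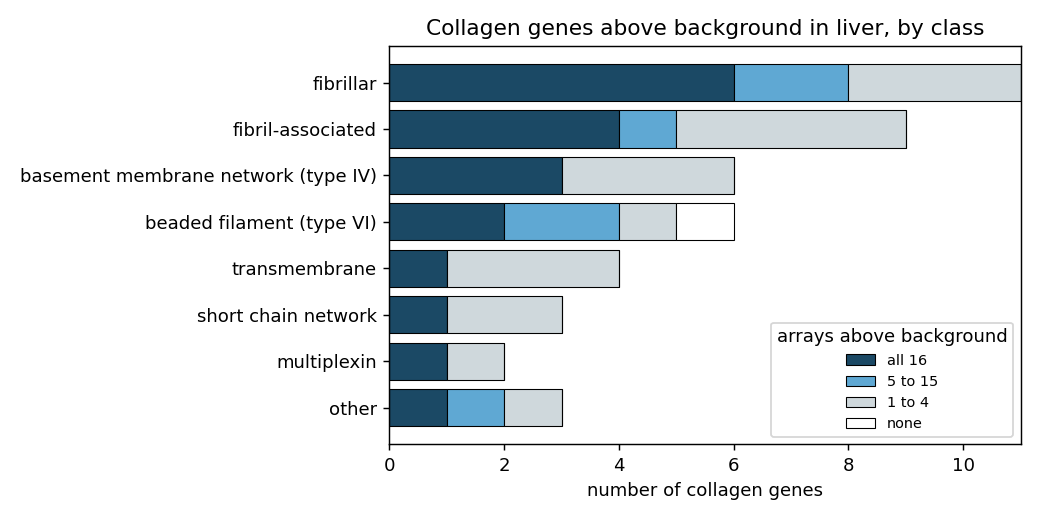
Number of collagen genes of each class (bars, x axis) by how many of the 16 arrays had a probe of the gene well above background (colours). The fibrillar class has 8 of 11 genes above background on at least 5 arrays, and the transmembrane class 1 of 4.

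The fibril-forming chains of type I differed more between mice of the same group than between groups. Col1a1, which encodes the chain present in 2 copies in each type I molecule, ranged in the Conv + PBS mice from -2.99 to -0.31 with a median of -1.20. It read -1.66, -0.85, -1.94, -1.87 and 0.80 in the Conv + LM mice (13 to 17), and 0.29, -1.73, -0.93, 1.13 and -2.46 in Conv + OM(HFD) mice 25, 26, 28, 29 and 30. Conv + LM mouse 17 and Conv + OM(HFD) mice 25 and 29 were high, Conv + PBS mouse 6 and Conv + OM(HFD) mouse 30 were low, and the 3 groups overlapped throughout. From the lowest to the highest mouse, Col1a1 spanned 17.3-fold. Its standard deviation within groups was 1.202 on the log2 scale, the largest of the 25 measured collagen genes.

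Col1a2, the other chain of type I, followed nearly the same order of mice. Its value ran from 0.98 to 2.32 in the Conv + PBS mice, with a median of 1.81. It was 1.39, 2.35, 1.49, 1.47 and 3.28 in the Conv + LM mice and 2.68, 1.72, 2.04, 3.33 and 1.27 in the Conv + OM(HFD) mice. Conv + LM mouse 17 and Conv + OM(HFD) mouse 29 again stood highest. Col3a1, whose product builds the finer reticular fibres together with type I, ran from -0.05 to 1.52 in the Conv + PBS mice (median 1.04). It was 0.78, 1.62, 0.45, 0.36 and 2.07 in the Conv + LM mice and 1.72, 0.66, 0.94, 1.99 and 0.16 in the Conv + OM(HFD) mice. The lowest and highest mouse differed 5.11-fold in Col1a2 and 4.37-fold in Col3a1. Mouse 6 was lowest in both, and mouse 29 was highest in Col1a2 and mouse 17 in Col3a1.

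**Figure D2:**
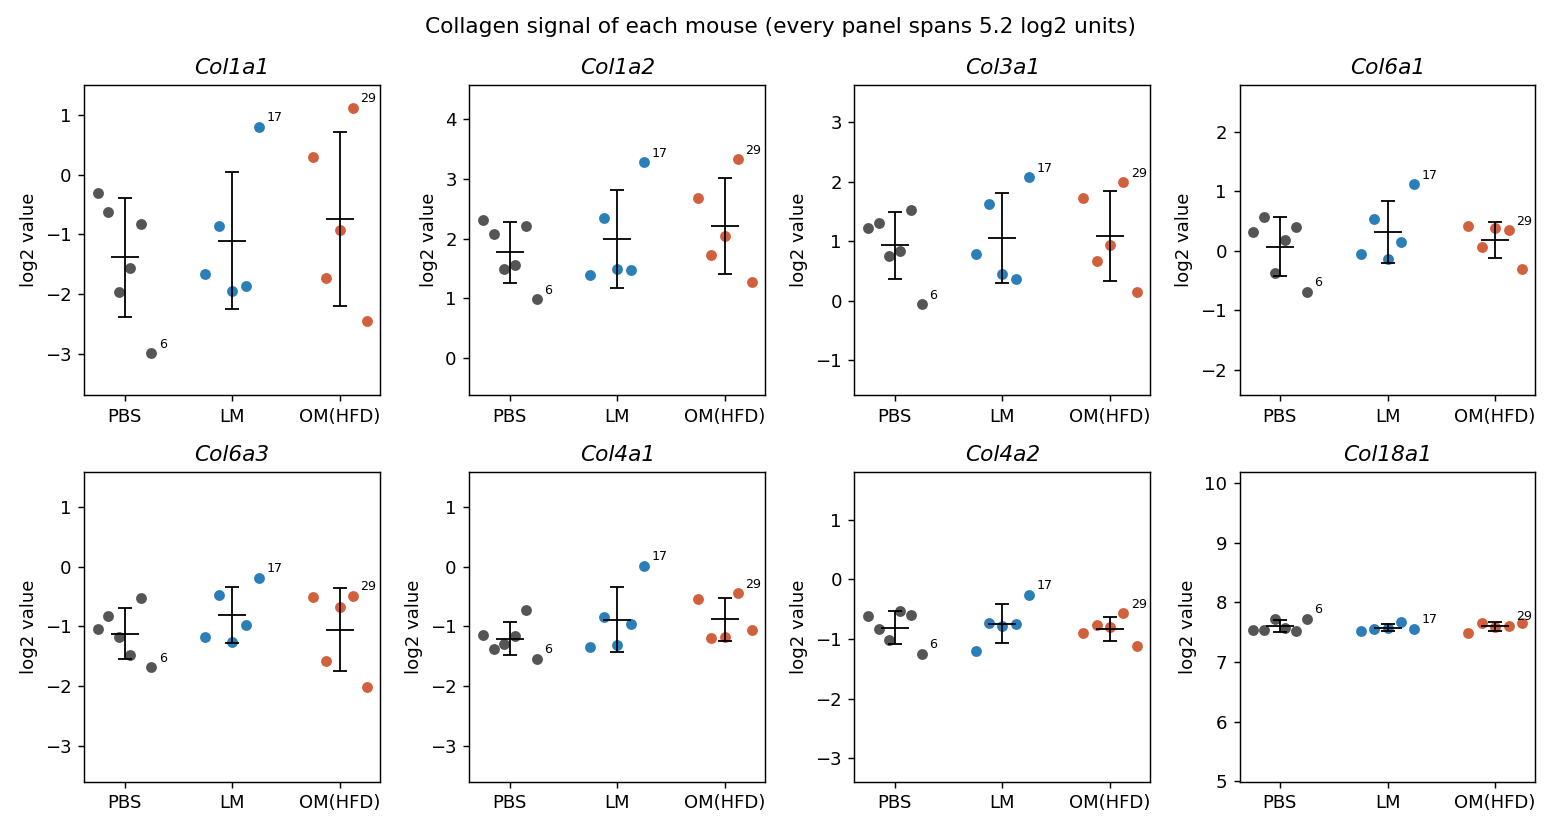
Log2 value relative to the 75th percentile of the array (y axis) of 8 collagen genes in each mouse (points), with the group mean and standard deviation (black). Mice 6, 17 and 29 are numbered: mouse 17 is the highest of the Conv + LM group and mouse 6 the lowest of the Conv + PBS group in every panel but Col18a1.

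The chains of type VI collagen, which assemble from Col6a1, Col6a2 and a chain such as Col6a3, moved with the same mice. Col6a1 ran from -0.68 to 0.58 in the Conv + PBS mice (median 0.25), and was -0.06, 0.53, -0.14, 0.15 and 1.12 in the Conv + LM mice and 0.41, 0.06, 0.39, 0.34 and -0.30 in the Conv + OM(HFD) mice. Col6a2 ran from -4.91 to -3.10 in the Conv + PBS mice (median -3.62). It was -4.02, -2.82, -3.62, -3.62 and -2.64 in the Conv + LM mice and -3.05, -4.60, -3.43, -3.23 and -3.92 in the Conv + OM(HFD) mice, and it lay above background in 14 of the 16, with mice 6 and 26 not above it. Mouse 17 was highest in both genes, and mouse 6 was lowest in Col6a1. Col6a3 spanned 3.57-fold over the 16 mice, from -2.02 in Conv + OM(HFD) mouse 30 to -0.18 in mouse 17.

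The basement membrane chains varied less. Col4a1 ran from -1.54 to -0.73 in the Conv + PBS mice (median -1.22), and was -1.34, -0.85, -1.31, -0.95 and 0.02 in the Conv + LM mice and -0.54, -1.19, -1.17, -0.44 and -1.06 in the Conv + OM(HFD) mice. Its partner Col4a2 ran from -1.25 to -0.54 in the Conv + PBS mice (median -0.73), and was -1.20, -0.72, -0.77, -0.75 and -0.25 in the Conv + LM mice and -0.90, -0.76, -0.81, -0.56 and -1.11 in the Conv + OM(HFD) mice. Mouse 17 was the highest in both. Col18a1 hardly differed between animals. It ran from 7.53 to 7.73 in the Conv + PBS mice (median 7.55), and was 7.52, 7.55, 7.57, 7.67 and 7.56 in the Conv + LM mice and 7.48, 7.65, 7.58, 7.60 and 7.66 in the Conv + OM(HFD) mice, a span of 1.18-fold. Its standard deviation within groups, 0.079, was the smallest of the 25 genes.

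As a family, the collagens were more variable than the array. Their median standard deviation within groups was 0.44, against 0.24 over all 20404 genes measured, and 23 of 25 exceeded that value. Restricted to genes above background on all arrays, the medians were 0.44 and 0.21. Among the remaining members, Col8a1, a network chain of vessel walls, spanned 4.42-fold. Col27a1, a fibrillar chain best known from cartilage, spanned 4.21-fold and Col5a1, which sets fibre width, 1.83-fold. Col22a1, Col6a5, Col2a1 and Col11a2 were above background on 5 to 12 of the 16 arrays, so their span is not known.

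In 5 pairs of chains of the same molecule or fibre, the chains rose and fell together across mice. They were the pairs with both genes measured among 11 listed, and were tested on deviations from group means over the 16 mice, by 100000 permutations of mice within groups. Col1a1 and Col1a2 gave Pearson r = 0.98 and Spearman rho = 0.95 (permutation p = 1e-05 for both, the smallest these permutations can give, adjusted over the 5 pairs to 2.5e-05). Without the 2 mice farthest from the median of Col1a1, r was 0.97. Col1a1 and Col3a1 gave r = 0.96 (permutation p = 1e-05, adjusted 2.5e-05) and rho = 0.94 (adjusted permutation p = 2.5e-05), and r = 0.94 without those mice. Within the slides, r was 0.95 and 0.99 for the first pair and 0.97 and 0.99 for the second, and within the 3 groups it ranged from 0.94 to 0.995 over both.

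For type VI, Col6a1 with Col6a2 gave r = 0.83 and rho = 0.84 (adjusted permutation p = 0.000438 and 0.000325), and Col6a1 with Col6a3 gave r = 0.81 and rho = 0.84 (adjusted permutation p = 0.000167 and 0.0001). Leaving out the 2 mice farthest from the median of Col6a1 gave 0.74 and 0.78. The second relation depended on the probe read for Col6a3. With the mean of its passing probes r was 0.25. The probe in the glycine repeats and the probe that stands for the gene gave r = -0.10 with each other, and the former was above background on 10 arrays. Of the other genes with several passing probes, Col3a1 gave r = 0.40 between probes (the dimmer on 7 arrays), Col5a3 and Col11a2 each 0.31, Col13a1 0.083 (both on all 16 arrays) and Col27a1 -0.058. Col4a1 with Col4a2 gave r = 0.74 and rho = 0.70 (adjusted permutation p = 0.00459 and 0.0053), and r = 0.58 without the 2 mice farthest from the median. Within the slides it was 0.64 and 0.79, and within the groups from 0.39 in Conv + OM(HFD) to 0.90 in Conv + LM. Other chains of 1 type did not all run together, as a description over the same mice. Col5a1 with Col5a3 gave r = -0.055, and Col4a5 gave 0.15 with Col4a1 and -0.023 with Col4a2, all of them above background on all arrays.

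**Figure D3:**
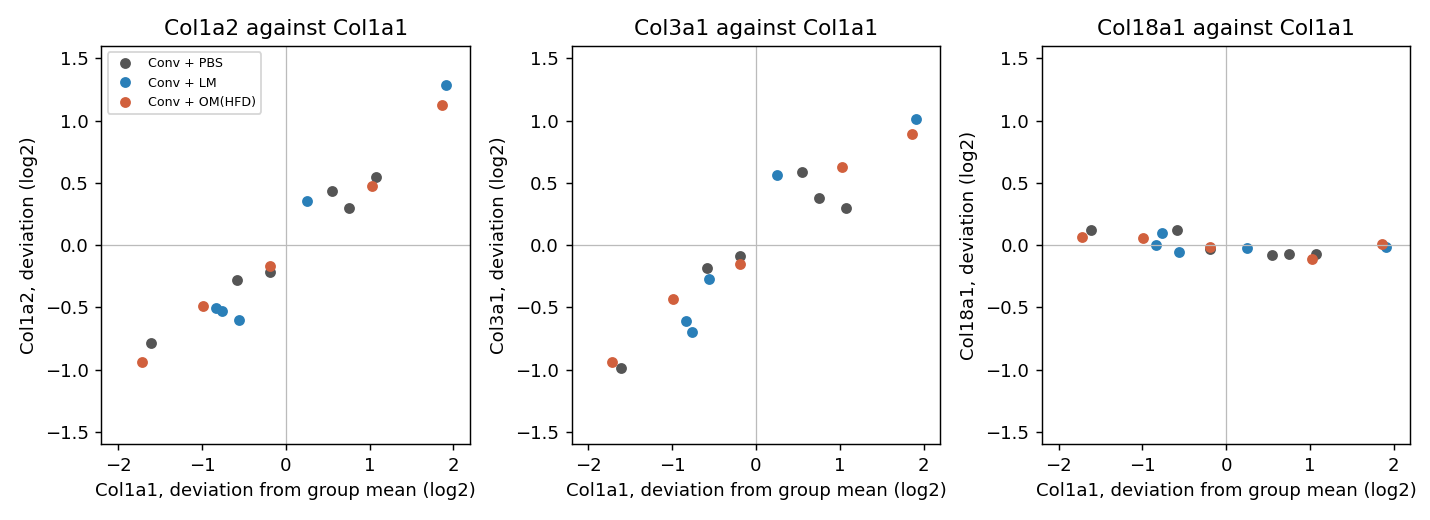
Deviation of each mouse from its group mean (log2) in Col1a2, Col3a1 and Col18a1 (y axes) against that in Col1a1 (x axis), coloured by group (16 mice). Col1a2 and Col3a1 rise with Col1a1 (r = 0.98 and 0.96), and Col18a1 falls slightly (r = -0.63).

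Over the whole family, 10 of the other 24 measured collagen genes had an r above 0.5 with Col1a1 (41.7%), against 4.12% of all other measured genes. These were Col1a2, Col3a1, Col6a3 (r = 0.88), Col8a1 (0.86), Col6a1 (0.86), Col6a2 (0.82), Col4a1 (0.79), Col4a2 (0.72), Col5a1 (0.71) and Col16a1 (0.69). They join interstitial and basement membrane chains. By their selection these genes follow Col1a1, and 17 was the highest mouse of the Conv + LM group and 6 the lowest of the Conv + PBS group in all 11 of them (in Col6a2 not above background), while in Conv + OM(HFD) mouse 29 was highest in 8 and mouse 30 lowest in 9. Without mice 17, 25 and 29, which had the highest Col1a1 values, r with Col1a1 was 0.95 for Col1a2, 0.91 for Col3a1 and 0.93 for Col6a1, but 0.46 for Col4a1 and 0.39 for Col5a1. Col18a1 went the other way (r = -0.63 with Col1a1), although over a span of only 0.24 log2 units. Over all 300 pairs of the 25 genes the median r was 0.17, with a range from -0.67 to 0.98, and 69 pairs (23.0%) exceeded 0.5. Over all pairs of the 20404 genes the median was 0.013, and 6.49% exceeded 0.5. Pairs share the 16 libraries, so these shares are given as a description.

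**Figure D4:**
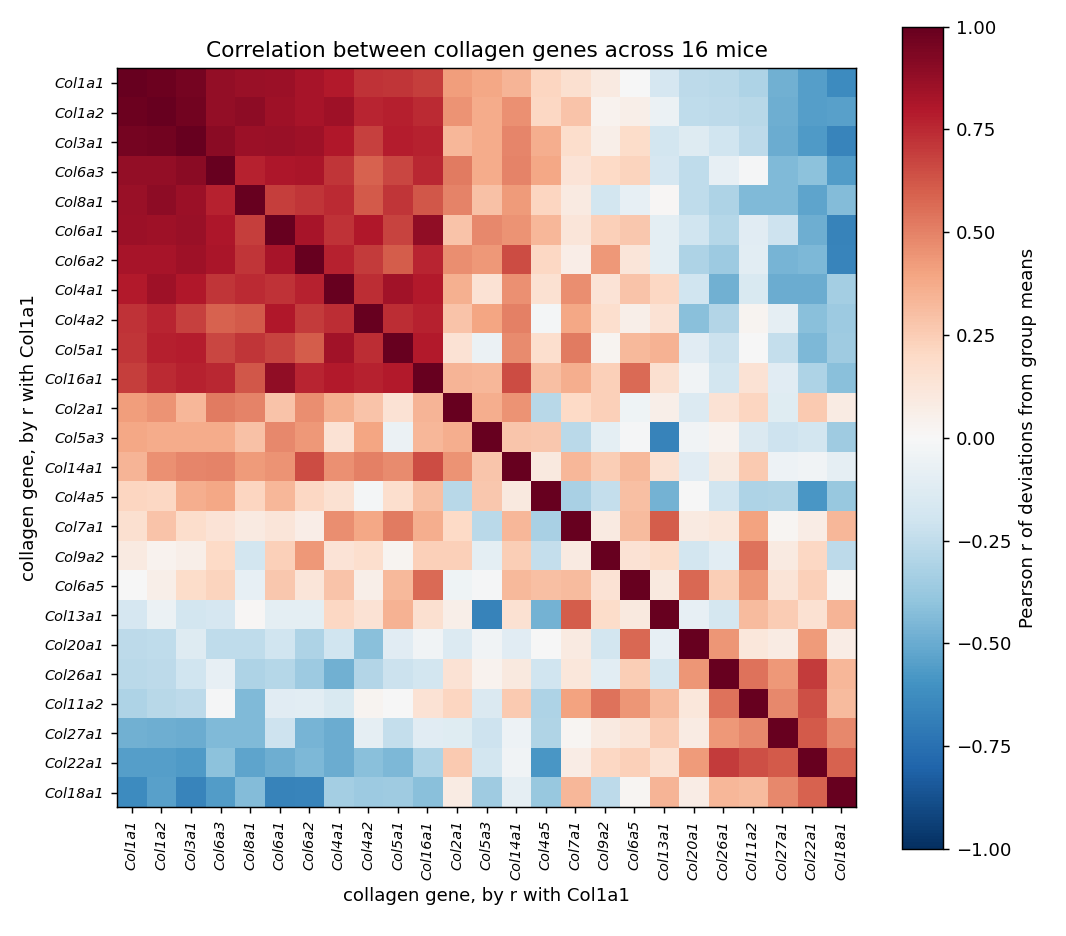
Pearson r across 16 mice, of deviations from group means, between each pair of the 25 measured collagen genes, ordered on both axes by r with Col1a1. The block of 11 genes at the upper left holds Col1a1, Col1a2, Col3a1, Col4a1, Col4a2, Col6a1, Col6a2 and Col6a3 with Col5a1, Col8a1 and Col16a1, and Col18a1 at the other end is negative against them.

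Of the 20404 genes measured, those most like Col1a1 were Col1a2, Col3a1, Fxyd6 (r = 0.92), an unnamed Ensembl transcript (0.89) and Loxl1 (0.89). Loxl1 is a lysyl oxidase that crosslinks collagen and elastin. Those most like Col4a1 were Ccdc80 (0.89), Gm32191 (0.89), Col1a2 (0.85), Col5a1 (0.84) and Snx10 (0.82). All are deviations from group means over the 16 mice.

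Some lists of other cell and matrix genes moved with Col1a1. Its r was computed with the mean of 16 lists of genes, and the p-values were adjusted over the 16. It was 0.81 with 8 genes for propeptide removal and crosslinking (rho = 0.83, adjusted permutation p = 0.00232 and 0.0036), 0.77 with 8 collagen receptors (rho = 0.71, adjusted permutation p = 0.00469 and 0.0142) and 0.76 with 21 other matrix proteins (rho = 0.76, adjusted permutation p = 0.00128 and 0.00208). It was 0.73 with 8 genes of degradation and its inhibitors (rho = 0.72, adjusted permutation p = 0.0199 and 0.0218), 0.59 with 14 genes of the TGF-beta axis (rho = 0.61, adjusted permutation p = 0.0531 and 0.0477) and 0.099 with 14 genes for procollagen folding. Without mice 17 and 29 the r of these 6 lists was 0.73, 0.72, 0.74, 0.72, 0.77 and -0.17 in that order. Among single genes, Fbn1, the fibrillin of microfibrils, gave 0.88, Mmp2, a gelatinase, 0.79, and Sparc, a collagen-binding protein, 0.78. Serpinh1, the collagen chaperone, gave 0.69, although the procollagen folding list it belongs to gave 0.099. Members of the lists also went the other way. The lowest were Hspg2 (-0.45) among other matrix proteins, Timp3 (-0.47) in degradation and Bmp1 (-0.38) in crosslinking. In folding it was Mia3 (-0.63), in the TGF-beta axis Tgfbr3 (-0.39) and among receptors Itga10 (0.030). Of the cell type lists, portal fibroblast and mesothelium markers gave r = 0.73 and rho = 0.69 (adjusted permutation p = 0.0140 and 0.0218, r = 0.83 without the 2 mice farthest from the median), with 8 of 10 measured and Gli1 and Upk3b not above background. The mesothelial genes Wt1 and Msln gave 0.82 and 0.80. The other members gave 0.72 (Upk1b), 0.58 (Gpm6a), 0.57 (Thy1), 0.20 (Pdgfra), -0.066 (Entpd2) and -0.22 (Clec3b), so this list did not move as 1. Kupffer cell markers gave r = 0.62 and rho = 0.73 (adjusted permutation p = 0.0244 and 0.0142, r = 0.70 without those mice), with 6 of 6 measured. Stellate cell markers, 11 of 12 measured and Gfap not above background, gave r = -0.024, with members from 0.79 for Pdgfrb to -0.46 for Des. Hepatocyte markers gave r = -0.58 (rho = -0.61, adjusted permutation p = 0.0531 and 0.0310). The other lists gave r = -0.52 for endothelium (rho = -0.58, adjusted permutation p = 0.142 and 0.0822), -0.45 for bile duct, 0.30 for neutrophils, 0.36 for B and T cells, -0.29 for pancreas and -0.30 for adipose tissue and muscle, with adjusted permutation p of r of 0.258 or more for each of these last 5. Without mice 17 and 29, r was 0.60 for neutrophils and 0.64 for B and T cells. Within the slides, r was 0.83 and 0.85 for portal fibroblasts and mesothelium, 0.84 and 0.68 for Kupffer cells, -0.53 and -0.63 for hepatocytes, 0.89 and 0.81 for propeptide removal and crosslinking, and 0.58 and 0.93 for other matrix proteins. The mean level of the portal fibroblast and mesothelium list ran from -4.06 to -1.78 in Conv + PBS, from -3.44 to -2.15 in Conv + LM and from -3.94 to -1.99 in Conv + OM(HFD). That of the Kupffer cell list ran from 0.68 to 3.14, from 0.19 to 0.93 and from 0.40 to 1.94. The 75th percentile of the array also rose with Col1a1 (r = 0.51, permutation p = 0.05003, and rho = 0.58, permutation p = 0.0245), whereas the share of probes above background gave r = 0.14. The part of these cell types or of array brightness in the collagen values was not tested. In whole liver RNA, more cells of a type and more RNA per cell cannot be told apart.

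The groups were then compared, to ask whether a lean or an obese microbiota left a mark on the collagens. In the limma fit of all 20404 genes, 0 of the 25 collagen genes reached an unadjusted p under 0.05 in Conv + OM(HFD) against Conv + PBS, where 3.24% of all genes did (1.52% higher and 1.72% lower). The count was also 0 in Conv + LM against Conv + PBS, with 3.94% of all genes (1.72% higher and 2.22% lower), and 0 in Conv + OM(HFD) against Conv + LM, with 2.7% (1.56% higher and 1.14% lower). After Benjamini-Hochberg adjustment limma called 0 collagen genes and 0% of all genes in each comparison, with smallest adjusted p-values of 0.9999, 0.9967 and 0.9995. No collagen gene had groups that did not overlap, against 0.235%, 0.279% and 0.456% of all genes. The methods' t-test, named in the study for other data, called 1, 1 and 0 collagen genes before adjustment, beside 3.1%, 3.71% and 3% of all genes, and 0 collagen genes and 0% of all genes after it. With these group sizes an exact permutation test of 1 gene cannot give a p below 0.00216 against Conv + PBS or below 0.00794 between the microbiota groups.

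The differences were large in some chains, with wide intervals. The median difference of the 25 genes was 0.016 in Conv + OM(HFD) against Conv + PBS, 0.052 in Conv + LM against Conv + PBS and 0.0060 between the microbiota groups, beside -0.00041, -0.014 and 0.0087 for all genes. In size, ignoring the sign, it was 0.16, 0.25 and 0.18 for collagens and 0.090, 0.099 and 0.098 for all genes. The group means ± SD of Col1a1 were -1.38 ± 0.999 in Conv + PBS (n = 6), -1.11 ± 1.15 in Conv + LM (n = 5) and -0.74 ± 1.46 in Conv + OM(HFD) (n = 5). In Conv + OM(HFD) the mean of Col1a1 thus exceeded that of Conv + PBS by 0.64, with a 95% interval from -0.79 to 2.08, and the difference was 0.11 on the first slide and 1.32 on the second. It was 0.18 without Conv + OM(HFD) mouse 29, 0.32 without Conv + PBS mouse 6 and 1.07 without Conv + OM(HFD) mouse 30. Between Conv + LM and Conv + PBS Col1a1 differed by 0.28 (-1.16 to 1.71), which turned to -0.20 without Conv + LM mouse 17. Between Conv + OM(HFD) and Conv + PBS, Col1a2 differed by 0.44 (-0.42 to 1.30) and Col3a1 by 0.16 (-0.66 to 0.98), with 0.078 and -0.25 on the first slide and 0.91 and 0.65 on the second. Without Conv + OM(HFD) mouse 29 they were 0.16 and -0.064. Col4a1 was 0.33 higher (-0.16 to 0.82) in Conv + OM(HFD) and 0.32 higher (-0.17 to 0.81) in Conv + LM than in the same Conv + PBS mice, with exact permutation p of 0.132 and 0.247. The second difference was 0.039 and 0.53 on the slides, and 0.095 without Conv + LM mouse 17. Col4a2 differed by -0.020 (-0.37 to 0.33) and 0.066 (-0.28 to 0.41). The narrowest interval belonged to Col18a1, whose difference between Conv + OM(HFD) and Conv + PBS was -0.0061 (-0.15 to 0.14), that is a change of between -9.68% and 9.80%. The difference had opposite signs on the 2 slides in 11, 12 and 11 of the 25 genes in the 3 comparisons.

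**Figure D5:**
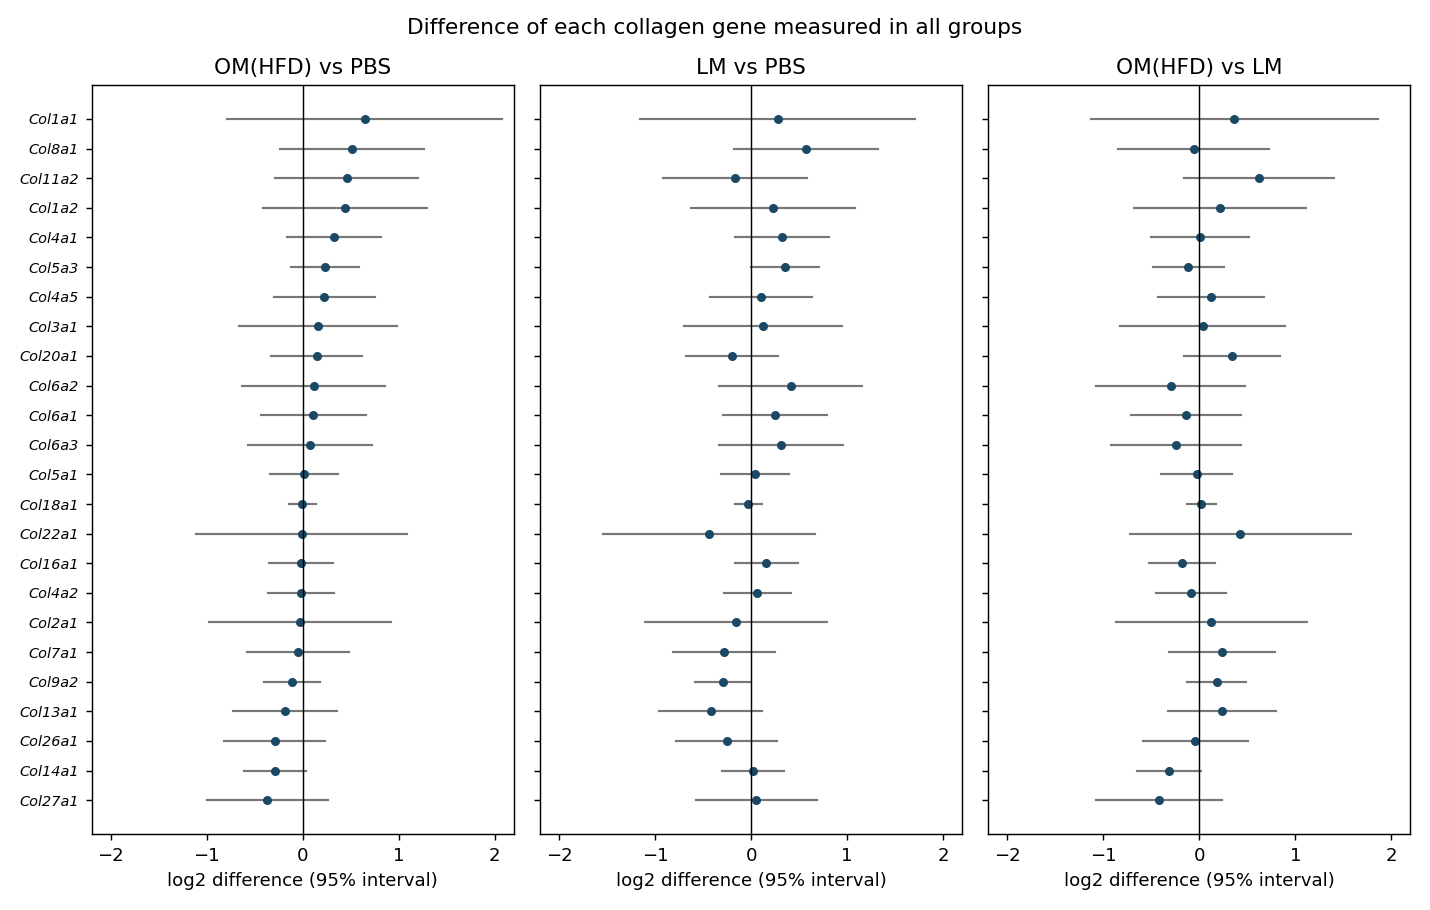
Log2 difference (x axis) between the groups named above each panel for 24 of the 25 measured collagen genes (Col6a5, above background on no Conv + OM(HFD) array, is left out), with limma's 95% interval (lines), ordered by the first panel. Every interval includes 0, from the wide one of Col1a1 (-0.79 to 2.08 in the first panel) to the narrow one of Col18a1 (-0.15 to 0.14).

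The members closest to the threshold are named here after their values were seen. Col14a1, a fibril-associated chain, ran from -2.43 to -1.87 in the Conv + PBS mice (median -2.16), and was -2.57, -1.59, -2.13, -2.29 and -1.92 in the Conv + LM mice and -2.56, -2.58, -2.23, -2.32 and -2.38 in the Conv + OM(HFD) mice. The mean of the Conv + OM(HFD) group lay below that of the vehicle group (difference -0.29, 95% interval -0.62 to 0.030, limma p = 0.0724, exact permutation p = 0.0346), on both slides (-0.40 and -0.20). After quantile normalization, in the authors' processed values, with array weights and with only the 2 groups compared, limma gave it an unadjusted p under 0.05. The methods' t-test did so too. Normexp background correction adds an offset of 50 to each signal, which by itself shrinks log2 differences of dim genes. With it the difference of Col14a1 was -0.11. Against Conv + LM its difference in Conv + OM(HFD) was -0.32 (limma p = 0.0649, exact permutation p = 0.119). Col9a2, a cartilage-type chain, ran from -3.56 to -3.09 in the Conv + PBS mice (median -3.35) and was -3.58, -3.75, -3.66, -3.54 and -3.54 in the Conv + LM mice. That difference was -0.29 (-0.58 to 0.0017, limma p = 0.0512, exact permutation p = 0.00866), with -0.34 and -0.26 on the slides, and it shrank to -0.076 with normexp. Col9a2 came under an unadjusted p of 0.05 with probes above background on all arrays, only the 2 groups compared and the methods' t-test. Col5a3, a minor chain of type V, was 0.35 higher in Conv + LM than in Conv + PBS (-0.0027 to 0.71, limma p = 0.0516, exact permutation p = 0.0736). It came under an unadjusted p of 0.05 with the authors' values, probes above background on all arrays, only the 2 groups compared and array weights. None of these passed adjustment over all genes, and 75 exact tests were made over the 25 genes. Col6a5 was above background in 4 Conv + PBS mice, 1 Conv + LM mouse and no Conv + OM(HFD) mouse. No fold is given for it and it is left out of the plot of differences, since it was measured mainly in the group where it was high.

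The genes that act on collagens were taken as 6 lists, of which 73 of 88 genes were measured. No partner was higher at an unadjusted limma p under 0.05 in any comparison. In Conv + OM(HFD) against Conv + PBS 4 of 73 (5.48%) were lower, beside the 1.72% of all genes given above, and in Conv + LM against Conv + PBS also 4 of 73 (5.48%), beside 2.22%. Between the microbiota groups none was. The first 4 were Dcn, the proteoglycan decorin that binds collagen fibres (difference -0.26, exact permutation p = 0.0433), Lamb1, a laminin chain of basement membranes (-0.41, exact p = 0.0736), Ddr2, a collagen receptor (-0.23, exact p = 0.0303), and Fn1, fibronectin (-0.15, exact p = 0.0281). On the second slide alone the difference was -0.011 for Dcn and -0.097 for Ddr2, and with the mean of all Fn1 probes that of Fn1 turned to 0.056. The second 4 were Fn1 (-0.22, exact permutation p = 0.00866), the collagenase Mmp8 (-1.23, exact p = 0.0281), the procollagen C-proteinase enhancer Pcolce2 (-0.80, exact p = 0.0974) and the receptor Tgfbr1 (-0.23, exact p = 0.0541). With normexp the difference was -0.24 for Mmp8 and -0.28 for Pcolce2, on the second slide alone -0.12 for Tgfbr1, and with the mean of all probes -0.11 for Fn1. Of 12 other settings of the processing, the call held in 3 for Lamb1, 4 for Pcolce2, 5 for Tgfbr1 and 7 for Fn1 in Conv + OM(HFD), and in 5 of 11 for Mmp8, so that most settings ended those of Lamb1, Pcolce2, Tgfbr1 and Mmp8, whereas it held in 11 for Dcn and 9 each for Ddr2 and for Fn1 in Conv + LM. Leaving out single mice ended the call of each of these partners in 5 to 12 of 16 fits, except that of Fn1 in Conv + LM, which no mouse ended. Without Conv + PBS mouse 1 the difference of Lamb1 was -0.24, and without Conv + LM mouse 14 that of Mmp8 was -0.80. Mmp8 is the collagenase of neutrophils, and the neutrophil markers had a median difference of -0.58 in Conv + LM against Conv + PBS, with mean levels from -3.42 to 0.53 in Conv + PBS and from -3.47 to -2.47 in Conv + LM (6 of 7 measured, Retnlg not), and their part in the Mmp8 value was not tested. These comparisons share the Conv + PBS mice, and the smallest adjusted p in them was 0.9967. By list, none of 14 folding and modification genes, among them Serpinh1, reached p under 0.05 in a comparison. Propeptide removal and crosslinking had 1 of 8, degradation 1 of 8, receptors 1 of 8 and the TGF-beta axis 1 of 14, each in 1 comparison, and other matrix proteins 3 of 21 against Conv + PBS in Conv + OM(HFD) and 1 in Conv + LM.

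Among the cell type markers, in Conv + OM(HFD) against Conv + PBS 1 of 11 stellate cell markers was lower (list median -0.20), as were 1 of 10 endothelial markers (Clec4g, -0.48) and 1 of 6 B and T cell markers (Cd3g, -0.46), beside the 1.72% of all genes. In Conv + LM against Conv + PBS 1 of 10 endothelial markers was higher (Flt4, 0.62) and 1 lower (Cdh5, -0.31), beside 1.72% and 2.22% of all genes. Between the microbiota groups 2 of 10 endothelial markers were lower (Flt4, -1.08, and Tek, -0.37). So was 1 of 11 stellate cell markers (Lrat, -0.38), beside 1.14% of all genes. With normexp these were 0.16 and -0.17 for Flt4, -0.10 for Tek and -0.077 for Cd3g, and on the second slide alone -0.15 for Clec4g. Leaving out single mice ended the call of Cdh5 in 4 of 16 fits (-0.20 without Conv + PBS mouse 1), of Tek in 3, of Flt4 against Conv + PBS in 2 (0.37 without Conv + LM mouse 15), of Lrat between the microbiota groups in 2 and of Clec4g in 1 (-0.31 without Conv + OM(HFD) mouse 25). None of these passed adjustment. The list medians farthest from 0 were -0.26 for portal fibroblasts and mesothelium in Conv + OM(HFD) against Conv + PBS, -0.56 for Kupffer cells and -0.58 for neutrophils in Conv + LM against Conv + PBS, and 0.39 and 1.08 for the same lists between the microbiota groups, with no member of these 3 lists called. The stellate cell marker called was Lrat, which esterifies retinol, with a difference of -0.63 between the obese microbiota and vehicle groups (unadjusted limma p = 0.000358, exact permutation p = 0.00649, adjusted p = 0.9999), or -0.37 with normexp. Across mice Lrat gave r = -0.0074 with Col1a1.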

How the data were processed

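Liver RNA (200 ng per mouse) was labelled with Cy3 and hybridised to 1-colour Agilent arrays, 1 per mouse (16 arrays). The deposited intensity values are spot signals after Agilent Feature Extraction (10.10.1.1 per the submitters' processing notes), which subtracts background. A further table, deposited by the authors on a log2 scale, followed the log2 median signal of the same array exactly in rank and served as an alternative. Its columns and the arrays were all matched to mice by label (0 unmapped).

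The log2 of each processed signal was taken minus the log2 of the 75th percentile of its array. Repeated spots of a probe were averaged and flagged spots left out. Genes needed a probe well above background on at least 5 arrays (30664 probes, 20404 genes), and the probe with the highest mean stood for its gene. The 3 groups were fitted together with limma 3.58.1 (R 4.3.3, lmFit and eBayes) with Benjamini-Hochberg adjustment over all genes. Scripts were tested on simulated data. Single genes also had a two-sided exact permutation test, and correlations used deviations from group means. P-values measure the spread between mice of this single experiment. The number of arrays limits the precision.

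Values of every mouse, or the lowest, median and highest in the group of 6, were given for Col1a1, Col1a2, Col3a1, Col4a1, Col4a2, Col18a1 and the 3 pairs with the highest r. Partners were named at an unadjusted p under 0.05, and the 5 genes most like Col1a1 and Col4a1 by r. The members, lists and this rule were chosen with earlier results of these data known. The alternatives were normexp, quantile normalization, the authors' values, other filters and probes, slide as a block, each slide alone, only the 2 groups compared, array weights, the methods' t-test and leaving out each mouse. Single Col1a1 and Col3a1 probes, the relations to lists and the fits without the 3 mice highest in Col1a1 were added after seeing the data.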

Additional observations from a re-analysis of the deposited data

Results flagged for a closer look

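In 4 of 75 sets of 1 collagen gene in 1 group, a single mouse stood far from the others by Dixon's criterion, which chance alone gives in about 1 of 20 sets. In the Conv + PBS group, mouse 3 was far above the rest in Col22a1 (-2.28 against -4.49 for the next mouse, a gap of 0.773 of the group's range) and in Col26a1 (-3.54 against -4.44, a gap of 0.739). Each gene was above background in 3 of the 6 mice. In the Conv + LM group, mouse 17 was highest in Col7a1 (-0.85 against -1.84, a gap of 0.787), where all 5 mice were above background. In the Conv + OM(HFD) group, mouse 29 was lowest in Col6a5 (-6.12 against -4.85, a gap of 0.736), where no mouse was above background, so that this order is not a measured one.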

How the results depend on the processing

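No collagen gene passed an adjusted p of 0.05 under any alternative run. Unadjusted, the count of collagen genes under 0.05, 0 in each comparison, became 1 in Conv + OM(HFD) against Conv + PBS with quantile normalization, the authors' values, only the 2 groups compared, array weights, the methods' t-test and slide 1 alone, and 2 with no filter. In Conv + LM against Conv + PBS it became 1 with the authors' values, array weights and the methods' t-test, and 2 with no filter, with probes above background on all arrays and with only the 2 groups. Between the microbiota groups it became 1 with quantile normalization, the authors' values and slide 1 alone, and 2 with no filter. The genes called with no filter were Col19a1, Col24a1 and Col25a1, which are not among the 25 measured genes. Their best probes were above background on 1, 1 and 3 arrays, so these counts rest on signals near background. The share of all genes under 0.05 is given only for the main fit (3.24%, 3.94% and 2.7%) and the methods' t-test (3.1%, 3.71% and 3%). The other counts here and below cannot be set against it. Leaving out single mice gave counts of 0 to 1, 0 to 2 and 0 to 1. Without Conv + LM mouse 17, Col13a1 (-0.58) and Col7a1 (-0.52) came under 0.05 in Conv + LM against Conv + PBS, and Col7a1 (0.47) between the microbiota groups. The median difference stayed between -0.037 and 0.088, -0.095 and 0.14, and -0.090 and 0.15 without single mice.

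Partners under 0.05 in Conv + OM(HFD) against Conv + PBS (4) became 2 with no filter or only the 2 groups, and 0 to 6 without single mice (0 without Conv + OM(HFD) mouse 30). In Conv + LM against Conv + PBS (4) they became 1 with normexp or no filter, 2 with quantile normalization, slide as a block, only the 2 groups or slide 1 alone, and 2 to 4 without single mice. Between the microbiota groups (0) they became 3 with normexp, 2 with the authors' values or slide 2 alone, 1 with slide 1 alone, and 0 to 2 without single mice. The Fn1 difference from Conv + PBS in Conv + OM(HFD) turned to 0.056 with the mean of all its probes.

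Detected collagen genes (25) became 43 with a limit of 1 array and 41 with Agilent's weaker call of a positive and significant signal. On slide 1 alone, r was 0.64 for Col4a1 with Col4a2 (permutation p = 0.179) and 0.81 for Col6a1 with Col6a2 (permutation p = 0.0829), and with the mean of all probes 0.25 for Col6a1 with Col6a3 (permutation p = 0.364). Without single mice the 5 pairs stayed at 0.97 to 0.99, 0.95 to 0.97, 0.60 to 0.79, 0.76 to 0.90 and 0.78 to 0.85, and the median over all pairs at 0.11 to 0.22. Apart from the shrinkage of dim genes' differences by the normexp offset, the cause of these changes was not tested. Dim chains are limited by signal over background. No paired analysis was possible because no mouse number occurs in more than 1 group.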
